A study of Arabidopsis thaliana with 8 samples.

Results

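The aquaporin family of Arabidopsis thaliana was followed at the transcript level in seedlings of 2 genotypes with and without the hormone abscisic acid (ABA). Its members were chosen by locus, as the 35 aquaporin genes listed by gene identifier, and all 35 had a row among the 33674 features of the read count table. They comprised 5 PIP1, 8 PIP2, 10 TIP, 9 NIP and 3 SIP genes. That rule used no measured value, although the family was picked with earlier results of these data known. Gene names are written with a hyphen, so that PIP2-3 stands for the gene also written as PIP2 followed by a semicolon and 3. The seedlings were 13 days old and of the ecotype Columbia-0, either wild type or the mutant skip-1, and had been kept in long days. They received 0 µM ABA or 100 µM ABA for 3 h, and each of the 4 groups had 2 libraries. SKIP encodes a protein of the spliceosome that also acts in transcription, and the lesion of the mutant was not given in the sources used here. Because whole seedlings were sequenced, fewer cells of a type and less RNA per cell cannot be told apart.

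Aquaporins are membrane channels that let water, and in some members small uncharged solutes, pass along a gradient. PIP proteins sit mainly in the plasma membrane, TIP proteins in the vacuolar membrane, NIP proteins in several membranes, where many conduct boric acid, glycerol or metalloids, and SIP proteins in the endoplasmic reticulum. In maize and in frog oocytes, PIP1 proteins need a PIP2 partner to reach the plasma membrane. ABA is the hormone of drought, and it is known to act on aquaporins both through transcript level and through phosphorylation.

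The PIP1 genes were PIP1-1 (AT3G61430), PIP1-2 (AT2G45960), PIP1-3 (AT1G01620), PIP1-4 (AT4G00430) and PIP1-5 (AT4G23400). The PIP2 genes were PIP2-1 (AT3G53420), PIP2-2 (AT2G37170), PIP2-3 (AT2G37180), PIP2-4 (AT5G60660), PIP2-5 (AT3G54820), PIP2-6 (AT2G39010), PIP2-7 (AT4G35100) and PIP2-8 (AT2G16850). The TIP genes were TIP1-1 (AT2G36830), TIP1-2 (AT3G26520), TIP1-3 (AT4G01470), TIP2-1 (AT3G16240), TIP2-2 (AT4G17340), TIP2-3 (AT5G47450), TIP3-1 (AT1G73190), TIP3-2 (AT1G17810), TIP4-1 (AT2G25810) and TIP5-1 (AT3G47440). The NIP genes were NIP1-1 (AT4G19030), NIP1-2 (AT4G18910), NIP2-1 (AT2G34390), NIP3-1 (AT1G31885), NIP4-1 (AT5G37810), NIP4-2 (AT5G37820), NIP5-1 (AT4G10380), NIP6-1 (AT1G80760) and NIP7-1 (AT3G06100), and the SIP genes SIP1-1 (AT3G04090), SIP1-2 (AT5G18290) and SIP2-1 (AT3G56950).

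The libraries held 20870110 to 23640113 counted reads, and the aquaporins took 0.634% to 0.931% of them. Nothing in the labels states that the libraries of a group came from separate cultures, and p-values cover just the scatter among the libraries at hand. The SKIP gene (AT1G77180) was at 150 and 163 CPM (counts scaled to library size) in the wild-type libraries without ABA and at 136 and 161 CPM in those treated. The skip-1 libraries had 104 and 133 CPM without the hormone and 108 and 125 CPM with it. Its genotype difference of −0.40 ± 0.15 (log2 ± SE) without ABA and −0.35 ± 0.15 with ABA did not pass the threshold (edgeR adjusted p = 0.0822 and 0.1), but did with a replicate block, that is with the replicate number as a further term of the fit (0.0104 and 0.0152). Summed root markers (17 genes) ran from 96.5 to 105 CPM in wild type without ABA and from 57.3 to 58.3 CPM with ABA. In skip-1 they ran from 110 to 129 CPM without ABA and from 65.6 to 71.9 CPM with ABA. Summed photosynthetic shoot markers (10 genes) ran from 40700 to 41000 CPM and from 24900 to 29900 CPM in wild type without and with ABA. They ran from 61000 to 61500 CPM and from 40400 to 40900 CPM in skip-1. None of the root and shoot markers was at 0 throughout a group. Both marker sums were thus lower with ABA in each genotype and higher in skip-1 than in wild type in each condition, with no overlap between the groups compared. In skip-1 without ABA, 3 of 16 tested root markers were higher, 1 was lower and 12 did not pass. Over all tested features 10.4% were higher and 10% lower. With ABA 1 was higher, 1 lower and 14 did not pass, beside 13.6% and 17.4%. The root marker medians were 0.06 and 0.32 (log2). PRP3 differed most without ABA, with 135 and 164 counts in wild type and 398 and 609 in skip-1. CASP1 to CASP5 had negative estimates there. Of the 10 shoot markers 6 were higher in skip-1, 0 lower and 4 did not pass, both without and with ABA. Their medians were 0.718 and 0.782. The sums moved so beside the ABA and genotype results given here, and their part in any aquaporin result was not tested. In the interaction, which asks whether the ABA effect differed between the genotypes, 0 of 16 root and 0 of 10 shoot markers passed. Over all tested features 0.8% were higher and 2.27% lower there. The marker medians were 0.215 and 0.083. The 13 seed markers summed to 0.346 to 0.731 CPM in wild type and to 1.5 to 3.04 CPM in skip-1, over both treatments. Among them LEC1, CRB and SESA3 had no count in any library, and ABI3 and FUS3 had counts in skip-1 libraries alone, at most 11 in 1 library. SESA2, a seed storage albumin gene and the 1 seed marker with enough counts to test, had 0 and 0 counts in wild type and 44 and 27 in skip-1 without ABA (edgeR adjusted p = 0.00312). With ABA it had 0 and 2 counts in wild type and 6 and 7 in skip-1 (edgeR adjusted p = 0.0988). The 5 pollen markers summed to at most 0.891 CPM in any library, with VGD1 and DUO1 at no count throughout.

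PIP2-2 and PIP2-3 lie side by side on chromosome 2 (RefSeq TAIR10.1). PIP2-2 (AT2G37170) is at chr2:15613368-15615022 on the minus strand and PIP2-3 (AT2G37180, also named RD28 for its response to desiccation) at chr2:15617635-15619155 on the plus strand, 2613 bp apart. Their coding sequences were identical at 94.8% of 858 aligned bases, with a longest identical run of 242 bases, which is the closest pair in the family. The last 90 coding bases of both genes are shown because the values of this pair depend on telling such stretches apart. Capitals mark the 10 bases that differ.
PIP2-2: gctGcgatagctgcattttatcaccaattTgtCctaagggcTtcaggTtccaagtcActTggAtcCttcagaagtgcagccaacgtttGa
PIP2-3: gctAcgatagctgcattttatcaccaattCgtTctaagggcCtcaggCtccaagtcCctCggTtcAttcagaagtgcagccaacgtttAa
How reads that match both genes were counted was not given in the sources used here. As a result, the levels of PIP2-2 and PIP2-3 are uncertain by the reads they share. The next closest coding pairs were NIP4-1 and NIP4-2 (88.1%, 1990 bp apart on chromosome 5), PIP1-1 and PIP1-2 (87.6%) and PIP2-1 and PIP2-2 (86.2%). In those 3 pairs the longest identical run was 74, 41 and 35 bases.

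The 250 bases before the annotated gene start are shown for 3 members on which the results turn. PIP2-3 had the largest rise with ABA among the members in wild type, TIP1-1 was the most abundant member in wild type with ABA, and TIP1-2, its closest relative in coding sequence (81.7%), moved the other way. The windows are chr2:15617385-15617634 (plus strand), chr2:15445044-15445293 (plus strand) and chr3:9723905-9724154 (minus strand) of TAIR10.1. Capitals mark ACGTG, the core of the ABA-responsive element, read here on either strand, so that it appears in TIP1-1 as its reverse complement CACGT.
PIP2-3: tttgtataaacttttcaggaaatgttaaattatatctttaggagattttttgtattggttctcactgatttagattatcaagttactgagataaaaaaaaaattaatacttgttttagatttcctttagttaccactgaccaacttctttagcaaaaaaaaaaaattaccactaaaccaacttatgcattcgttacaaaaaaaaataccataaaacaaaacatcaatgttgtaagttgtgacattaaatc
TIP1-1: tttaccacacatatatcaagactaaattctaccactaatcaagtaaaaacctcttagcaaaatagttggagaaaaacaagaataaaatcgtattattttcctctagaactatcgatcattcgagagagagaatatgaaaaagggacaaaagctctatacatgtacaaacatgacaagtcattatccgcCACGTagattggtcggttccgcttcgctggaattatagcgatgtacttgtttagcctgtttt
TIP1-2: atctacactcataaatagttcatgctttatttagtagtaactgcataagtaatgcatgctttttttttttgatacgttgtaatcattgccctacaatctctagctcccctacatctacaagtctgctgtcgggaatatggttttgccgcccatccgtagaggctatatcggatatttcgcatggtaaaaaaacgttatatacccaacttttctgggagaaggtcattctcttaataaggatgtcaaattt

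The family was dominated by a few members in every group. Levels are given as TMM-scaled FPKM, that is counts divided by gene length in kilobases and by library size after scaling by trimmed mean of M values (TMM), so that genes of different length can be compared. In wild type without ABA the vacuolar channel TIP1-2 led, followed by TIP2-1, PIP1-2 and PIP1-3, and these 4 held 59.0% of the summed level of the family. With ABA the leaders were TIP1-1, PIP2-1, PIP1-2 and PIP1-4, with 47.6%. In skip-1 without ABA they were TIP1-2, PIP1-2, PIP2-7 and TIP2-1, with 59.7%. In skip-1 with ABA, TIP1-2 still led, followed by PIP2-1, PIP1-2 and PIP2-7, with 49.5%. Between 11 and 14 members had a mean level over 100 in each group, and none of these was a NIP or SIP gene except SIP1-1 in wild type with ABA.

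**Figure D1:**
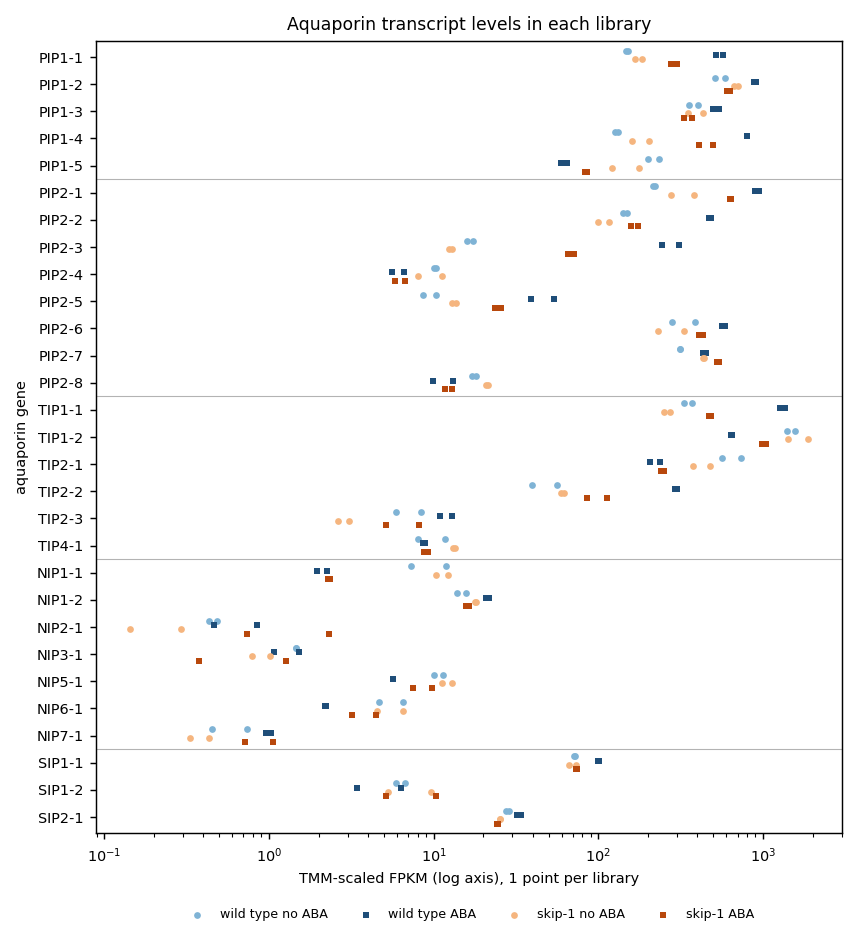
TMM-scaled FPKM (log axis) of the 29 tested aquaporin genes, with 1 point for each of the 8 libraries, coloured by group and ordered by subfamily. PIP2-3 sits at 15.9 and 17.4 in wild type without ABA and at 308 and 245 with ABA, and TIP1-2 is the highest member in every group except wild type with ABA.

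The summed level of the family in wild type was 4914 and 5461 without ABA and 8277 and 8209 with it. In skip-1 the sum was 5037 and 5679 without ABA and 5579 and 5726 with it. Both wild-type libraries with ABA therefore stood above the other 6, and the skip-1 libraries with and without ABA overlapped. As a share of all counted reads, with no TMM scaling, the aquaporins took 0.634% and 0.694% in untreated wild type and 0.926% and 0.931% in wild type given ABA. In skip-1 that share was 0.656% and 0.701% untreated and 0.703% and 0.714% treated. These sums are given as descriptions, without a test.

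The make-up of the family by transcript also differed, with a smaller vacuolar part in the groups given ABA. TIP genes held 49.1% ± 0.339 (SD, n = 2) of the summed level in wild type without ABA and 30.3% ± 0.884 with ABA. PIP2 genes held 20.5% ± 0.064 and 33.4% ± 0.304, and PIP1 genes 27.5% ± 0.035 and 34.2% ± 1.22. In skip-1 without and with ABA the TIP share was 45.0% ± 3.48 and 32.8% ± 0.212, and the PIP2 share 22.6% ± 1.61 and 33.0% ± 0.382. The PIP1 share in skip-1 was 29.6% ± 1.59 and 31.8% ± 0.014. The TIP share was lower and both PIP shares were higher with ABA in either genotype. The summed TIP level itself was 2548 ± 208 and 2497 ± 86.8 (SD, n = 2) in wild type without and with ABA, so the lower share there went with a larger PIP sum. In skip-1 the summed TIP level was 2417 ± 391 and 1853 ± 21.9. NIP genes held 0.415% to 0.911% and SIP genes 1.68% to 2.05% of the sum, by group mean.

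**Figure D2:**
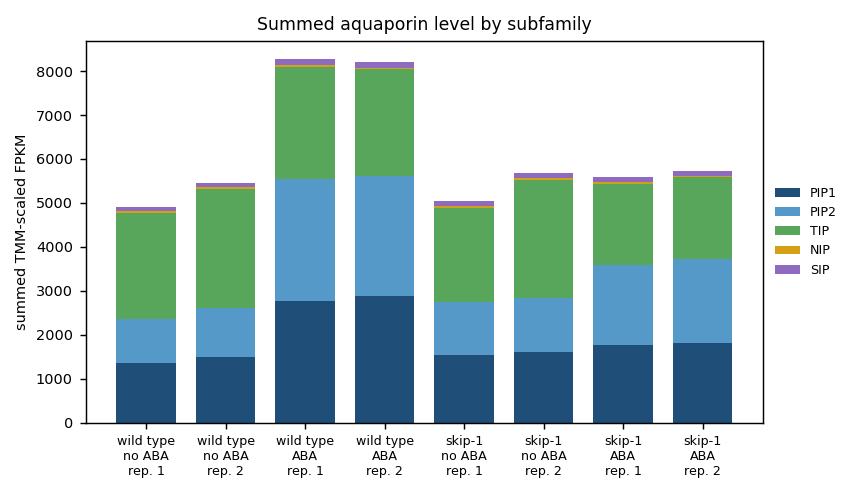
Summed TMM-scaled FPKM of the aquaporin genes in each of the 8 libraries, stacked by subfamily. The bars of wild type with ABA reach 8277 and 8209, and the other 6 lie between 4914 and 5726.

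Of the 35 members, 29 passed the filter on low counts and were tested, and 6 did not. The 6 were TIP1-3 with 4 counts over all libraries, TIP3-1 with 18, TIP3-2 with 28, TIP5-1 with 1, NIP4-1 with 0 and NIP4-2 with 13. TIP1-3 and TIP5-1 are known as pollen aquaporins, NIP4-1 and NIP4-2 act in pollen, and TIP3-1 and TIP3-2 belong to the seed. A count of 0 in every library allows up to 3 counts a library, or 0.127 to 0.144 CPM. TIP3-2 had 10 and 4 counts in untreated and 3 and 3 in treated wild type, and 0 and 5 in untreated and 0 and 3 in treated skip-1. TIP3-1 had 0 and 3, then 2 and 2, then 0 and 0, then 3 and 8 counts in the same order of groups. NIP4-2 had 3 and 6, then 0 and 0, then 1 and 2, then 1 and 0 counts. TIP1-3 had 2 counts in wild type ABA replicate 1, and 1 each in skip-1 mock replicate 1 and skip-1 ABA replicate 2, where mock stands for 0 µM ABA. The single TIP5-1 count was in wild type mock replicate 2. At this depth no difference of these 6 genes could be seen.

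The first comparison asked which aquaporin transcripts ABA changed in wild type. Of the 29 tested members, 15 rose, 8 fell and 6 did not pass the test (edgeR quasi-likelihood test, Benjamini-Hochberg adjusted p under 0.05 over 21008 features). Across all tested features 23.7% rose and 19.5% fell, so the share of members that rose was above that of all features, and the share that fell was higher by less. The median change of the members was 0.49 on the log2 scale, beside −0.01 over all features. By subfamily, 4 of 5 PIP1 genes rose and 1 fell, 6 of 8 PIP2 genes rose and 2 fell, and 3 of 6 tested TIP genes rose and 2 fell. Of 7 tested NIP genes 1 rose and 3 fell, and of 3 SIP genes 1 rose. Scaling by library size alone moved the median of all features from −0.01 to −0.22, and then 13 members rose and 8 fell, while 3743 features rose and 6658 fell. The members' median was then 0.28.

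Among the PIP1 genes, PIP1-4, known for transport of water and of hydrogen peroxide, was at 131 and 126 TMM-scaled FPKM in wild type without ABA and at 800.2 and 804 with it. It rose by 2.64 ± 0.15 on the log2 scale (edgeR adjusted p = 3.29e-06). PIP1-1 went from 152 and 147 to 521 and 571 and rose by 1.87 ± 0.11 (edgeR adjusted p = 3.94e-06). Both genes had groups that did not overlap, but so did NIP7-1 and SIP2-1, which did not pass the test. How many of all features had such a gap was not counted. PIP1-2, the most abundant PIP1 gene and a channel of leaf water and carbon dioxide transport, was at 509 and 587 without ABA and at 878 and 903 with it. It rose by 0.70 ± 0.11 (edgeR adjusted p = 0.000984). PIP1-3 went from 357 and 404 to 498 and 543, a rise of 0.45 ± 0.13 (edgeR adjusted p = 0.0216). PIP1-5 alone among the PIP1 genes fell, from 201 and 235 to 64.5 and 59.5, by 1.81 ± 0.17 on the log2 scale (edgeR adjusted p = 7.7e-05).

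Among the PIP2 genes, the water channels of the plasma membrane, PIP2-3 was at 15.9 and 17.4 TMM-scaled FPKM without ABA and at 308 and 245 with ABA. Its rise of 4.05 ± 0.14 (16.6-fold, edgeR adjusted p = 3.93e-07) was the largest among the 29 members. Its neighbour PIP2-2 went from 141 and 149 to 467 and 484 and rose by 1.71 ± 0.11 (edgeR adjusted p = 7.88e-06). Its own level and that of PIP2-3 are uncertain by shared reads. PIP2-1, which acts in roots and guard cells and in wild type led the subfamily with ABA but stood below PIP2-6 and PIP2-7 without it, went from 222 and 215 to 943 and 899 and rose by 2.08 ± 0.15 (edgeR adjusted p = 1.4e-05). PIP2-5 went from 10.3 and 8.67 to 53.6 and 38.9 and rose by 2.28 ± 0.17. PIP2-6 (282 and 387 without ABA, 563 and 586 with ABA) and PIP2-7 (313 and 315 without ABA, 432 and 451 with ABA) rose less, by 0.78 ± 0.19 and 0.49 ± 0.09. The scarce PIP2-4 and PIP2-8 fell. PIP2-4 was at 10.2 ± 0.233 (SD, n = 2) without ABA and at 5.59 and 6.59 with it (−0.74 ± 0.19), and PIP2-8 at 17.5 ± 0.786 without ABA and at 9.90 and 13.2 with it (−0.60 ± 0.15).

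Among the TIP genes, TIP1-1 and TIP1-2 exchanged places. TIP1-1, the gamma-TIP of the vacuole of growing cells, was at 371 and 333 TMM-scaled FPKM without ABA and at 1354 and 1272 with ABA. It rose by 1.90 ± 0.11 (edgeR adjusted p = 3.98e-06). TIP1-2 went from 1394 and 1570 to 647 and 643 and fell by 1.20 ± 0.15 on the log2 scale (edgeR adjusted p = 0.000268). TIP2-2 and TIP2-1, the latter known to conduct ammonia as well as water, formed a second pair of opposite sign. TIP2-2 went from 56.0 and 39.6 to 301 and 293 and rose by 2.64 ± 0.19 (edgeR adjusted p = 1.74e-05). TIP2-1 went from 560 and 738 to 236 and 205 and fell by 1.56 ± 0.17 on the log2 scale (edgeR adjusted p = 0.000138). TIP2-3, a root member, went from 8.42 and 5.93 to 10.9 and 13.0 and rose by 0.73 ± 0.25 (edgeR adjusted p = 0.0422). TIP4-1 did not pass the test (11.8 and 7.99 without ABA, 8.66 and 8.87 with ABA).

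The NIP genes were scarce, and those that changed mostly fell. NIP1-1, a channel that also carries arsenite, was at 11.9 and 7.26 TMM-scaled FPKM without ABA and at 2.24 and 1.96 with ABA. It fell by 2.19 ± 0.26 on the log2 scale (edgeR adjusted p = 0.000229). NIP5-1, the boric acid channel of root uptake, went from 10.7 ± 0.878 (SD, n = 2) to 5.69 and 5.67 (−0.92 ± 0.16, edgeR adjusted p = 0.00193). NIP6-1, the boric acid channel of shoot nodes, went from 4.66 and 6.52 to 2.20 and 2.20 (−1.34 ± 0.28, edgeR adjusted p = 0.00472). Beside these decreases the root marker sum was lower with ABA, as given above. Of the 16 root markers tested 8 were lower, 7 did not pass and 1, WOX5, was higher (1.55 ± 0.30, edgeR adjusted p = 0.00345). Over all tested features 19.5% were lower and 23.7% higher. NIP1-2, the most abundant NIP gene, rose from 13.8 and 15.6 to 21.8 and 20.7 (0.53 ± 0.11, edgeR adjusted p = 0.00443). NIP2-1, NIP3-1 and NIP7-1 had 10 to 35 counts a library in wild type and did not pass the test. Of the SIP genes, SIP1-1 rose from 72.1 and 70.8 to 99.5 and 102 (0.49 ± 0.09, edgeR adjusted p = 0.00216). SIP2-1 (27.6 and 28.8 without ABA, 34.1 and 32.1 with ABA) and SIP1-2 (6.66 and 5.90, then 6.30 and 3.45) did not pass the test.

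Of these 23 calls, 18 held when any 1 of the 8 libraries was left out. PIP1-3 lost its call without wild type mock replicate 1 or without either wild type ABA library (edgeR adjusted p up to 0.158). PIP2-4 lost it when the first wild type mock or first wild type ABA library was omitted (up to 0.0896), and PIP2-6 without wild type mock replicate 1 or wild type ABA replicate 2 (up to 0.0885). For PIP2-8 it was the second wild type mock or the first wild type ABA library (up to 0.064). For TIP2-3 the same held of wild type mock replicate 2 and of both wild type ABA libraries (up to 0.229). With library size alone as the scale, PIP1-3 and TIP2-3 were not called.

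The second comparison asked the same in skip-1. There 11 of the 29 members rose, 8 fell and 10 did not pass the test, beside 16.3% of all tested features that rose and 12.1% that fell. The median change of the members was 0.05, beside −0.02 over all features. Both PIP groups had members on either side, with 2 PIP1 genes higher and 1 lower, and 5 PIP2 genes higher and 2 lower. Of 6 tested TIP genes 3 rose and 3 fell, and of 7 NIP genes 1 rose and 2 fell. No SIP gene passed the test in edgeR, at an unadjusted p under 0.05 or in DESeq2 (0 of 3 each time). DESeq2 called 3160 of 21008 features higher and 2164 lower, and all features were not counted at the unadjusted threshold.

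PIP2-3 was at 12.5 and 12.9 TMM-scaled FPKM in skip-1 without ABA and at 65.0 and 71.1 with ABA, a rise of 2.42 ± 0.13 (edgeR adjusted p = 8.47e-06). PIP1-4 went from 202 and 161 to 411 and 497 and rose by 1.32 ± 0.14 (edgeR adjusted p = 0.000256). PIP1-1 went from 168 and 185 to 278 and 302 and rose by 0.72 ± 0.10 (edgeR adjusted p = 0.00135). The same 3 genes had been among the clear rises in wild type. PIP2-1 went from 381 and 276 to 626 and 639 and rose by 0.94 ± 0.15 (edgeR adjusted p = 0.00192). PIP2-2 went from 100.2 and 117 to 157 and 174 (0.61 ± 0.11), and PIP2-5 from 12.9 and 13.6 to 25.6 and 23.4 (0.88 ± 0.16). PIP2-7, the most abundant PIP2 gene in skip-1 without ABA, went from 431 and 437 to 522 and 542 (0.29 ± 0.09, edgeR adjusted p = 0.0415).

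The PIP1 genes that rose less in wild type did not pass the test in skip-1. PIP1-2 was at 705 and 663 without ABA and at 631 and 605 with ABA (−0.15 ± 0.11), and PIP1-3 at 349 and 429, then 368 and 332 (−0.15 ± 0.13). PIP1-5 fell from 121 and 177 to 85.7 and 83.4 (−0.82 ± 0.17). PIP2-8 fell from 21.3 and 20.9 to 11.7 and 13.0 (−0.77 ± 0.15), and PIP2-4 from 8.00 and 11.2 to 6.70 and 5.85 (−0.61 ± 0.19). PIP2-6 (231 and 332 without ABA, 410 and 435 with ABA) narrowly missed the threshold (0.58 ± 0.19, edgeR adjusted p = 0.0555), and passed it with the replicate block (0.00776).

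In the TIP group, TIP1-1 rose from 273 and 250 to 467 and 486 TMM-scaled FPKM in skip-1 (0.87 ± 0.11, edgeR adjusted p = 0.000581). TIP1-2 fell from 1415 and 1888 to 990 and 1045 (−0.70 ± 0.15) and so stayed above TIP1-1 in both skip-1 libraries with ABA. TIP2-1 fell from 375 and 479 to 252 and 238 (−0.80 ± 0.17, edgeR adjusted p = 0.008), and TIP2-2 rose from 61.9 and 59.7 to 113 and 85.0 (0.70 ± 0.18). TIP2-3 rose from 3.05 and 2.64 to 8.10 and 5.10 (1.21 ± 0.27), and TIP4-1 fell from 13.2 and 13.6 to 8.71 and 9.27 (−0.57 ± 0.18). Both pairs of opposite sign seen in wild type thus had the same signs in skip-1.

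Of the NIP genes in skip-1, NIP1-1 fell from 12.2 and 10.3 to 2.33 and 2.29 (−2.28 ± 0.26, edgeR adjusted p = 0.000353), and NIP5-1 from 13.0 and 11.3 to 9.79 and 7.53 (−0.49 ± 0.16). NIP2-1, a lactic acid channel induced by low oxygen, had 4 and 7 counts without ABA and 57 and 18 with ABA. Its rise of 2.80 ± 0.68 (edgeR adjusted p = 0.0155) rested on these few counts, most of them in 1 library. NIP1-2 (17.9 and 18.0, then 15.7 and 16.4), NIP6-1 (6.51 and 4.50, then 4.47 and 3.19), NIP3-1 and NIP7-1 did not pass the test. NIP3-1 had 8 to 27 counts a library in skip-1 and NIP7-1 10 to 28. The SIP levels stayed close between the groups, with SIP1-1 at 66.8 and 73.3 without ABA and at 73.8 and 73.3 with ABA. SIP2-1 was at 25.3 and 25.2, then 24.4 and 24.5, and SIP1-2 at 9.62 and 5.26, then 10.4 and 5.16.

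Of the 19 calls in skip-1, 10 held when any 1 library was left out. PIP2-7 lost its call without any 1 of the 8 libraries (edgeR adjusted p 0.0646 to 0.214). PIP2-4 and NIP5-1 lost it in 7 of 8 (up to 0.276 and 0.234) and TIP4-1 in 6 of 8 (up to 0.159). TIP2-2 lost it without either skip-1 mock library or skip-1 ABA replicate 1 (up to 0.125). NIP2-1 lost it without skip-1 mock replicate 1 or skip-1 ABA replicate 1 (up to 0.108), and TIP2-3 without skip-1 mock replicate 2 or skip-1 ABA replicate 1 (up to 0.0761). TIP2-1 lost it without skip-1 mock replicate 2 or skip-1 ABA replicate 2 (up to 0.0547), and TIP1-2 without skip-1 ABA replicate 1 (0.051). Without that library 12 members were called in place of 19. Testing with no filter on low counts, or with library size alone, ended the call of PIP2-7, and DESeq2 did not call PIP2-4 and NIP5-1.

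**Figure D3:**
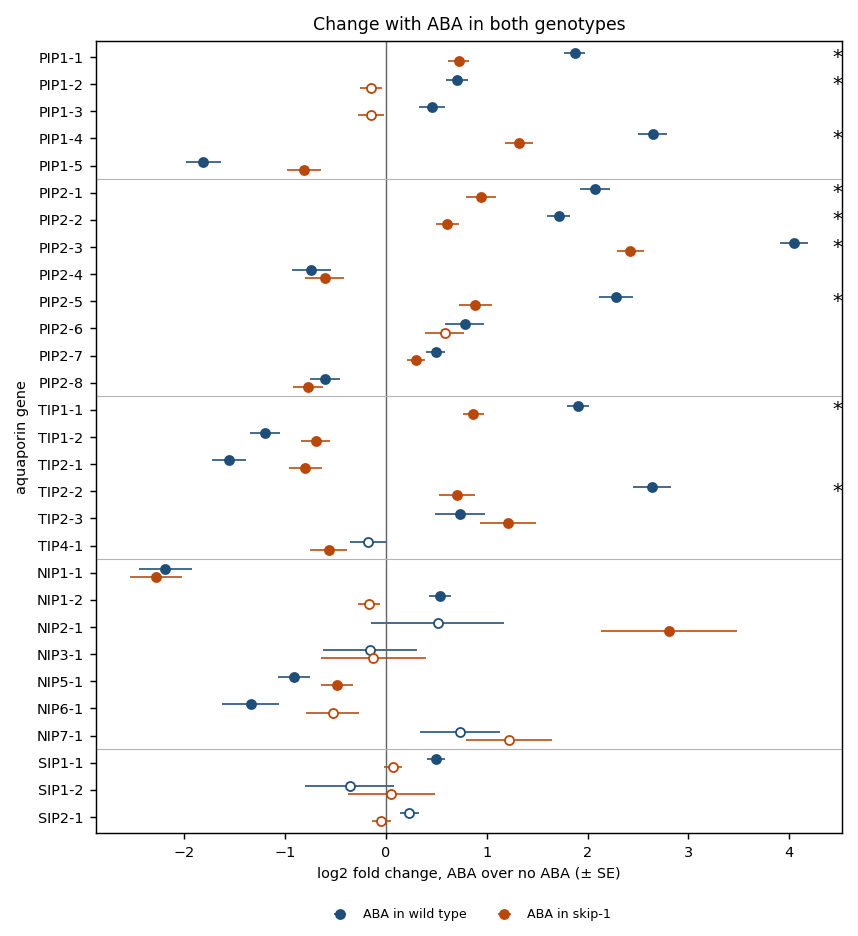
Log2 fold change with ABA (± SE) of the 29 tested aquaporin genes in wild type and in skip-1, with filled points past the edgeR adjusted p of 0.05 and an asterisk where the interaction passed it. PIP2-3 is at 4.05 in wild type and 2.42 in skip-1, and the 9 asterisks are all on genes whose wild-type change is positive.

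Both ABA comparisons used separate libraries, and their values can be set side by side. There were 10 members that rose in both genotypes and 7 that fell in both, and none was called in opposite directions. There were 6 called in wild type alone (PIP1-2, PIP1-3, PIP2-6, NIP1-2, NIP6-1 and SIP1-1) and 2 called in skip-1 alone (TIP4-1 and NIP2-1), which does not show that these effects differ. The fitted change was smaller in size in skip-1 in 23 of 29 members. Over all tested features 23.7% rose and 19.5% fell in wild type, and 16.3% rose and 12.1% fell in skip-1. How many of all features were called alike in both genotypes, or changed less in skip-1, was not counted. The member counts therefore have no background to be read against. Of the 15 that rose in wild type, 14 had a smaller value in skip-1, with TIP2-3 the exception. These 15 were picked by their rise in wild type, which in itself favours a smaller value in skip-1. Over the 29 members, which share libraries and depth and are not independent, the effects correlated at r = 0.793 (Pearson) and rho = 0.871 (Spearman), as a description.

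The interaction tested whether the ABA effect itself differed between the genotypes. It was negative past the threshold in 9 of 29 members and positive in none, beside 2.27% of all tested features that were lower and 0.8% that were higher. At an unadjusted p under 0.05 there were 12 negative and 4 positive members, and all features were not counted at that threshold. DESeq2 called 9 negative and 1 positive, beside 803 lower and 362 higher of 21008 features. The share of negative members was above that of all features, although most fits that left out 1 library called fewer members. Fewer of all tested features were called in each such fit as well. All 9 had risen with ABA in wild type, and their rise was smaller in skip-1, or in PIP1-2 did not pass the test there. They were 3 PIP1, 4 PIP2 and 2 TIP genes. The median over the 29 members was −0.20, beside −0.02 over all features. With scaling by library size alone these medians were −0.02 and 0.15, so both moved by about the same amount. Then 1 member was higher and 7 were lower, while 297 of 21008 features were higher and 238 lower.

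PIP2-3 had an interaction of −1.63 ± 0.18 (edgeR adjusted p = 0.00711), with a change of 4.05 in wild type and 2.42 in skip-1. For PIP1-1 the difference was −1.15 ± 0.15 (edgeR adjusted p = 0.00863), from 1.87 in wild type and 0.72 in skip-1. These were the 2 members whose interaction call held on leaving out any 1 library. TIP2-2 differed most, by −1.93 ± 0.25 (edgeR adjusted p = 0.0111), with 301 and 293 TMM-scaled FPKM in wild type with ABA and 113 and 85.0 in skip-1 with ABA. PIP2-2 differed by −1.10 ± 0.16 (edgeR adjusted p = 0.0122) and TIP1-1 by −1.03 ± 0.15 (edgeR adjusted p = 0.0132). TIP1-1 reached 1354 and 1272 in wild type with ABA and 467 and 486 in skip-1 with ABA, from 371 and 333 and from 273 and 250 without it. PIP1-4 differed by −1.32 ± 0.19 (edgeR adjusted p = 0.014), PIP2-5 by −1.40 ± 0.23 (edgeR adjusted p = 0.0208), PIP1-2 by −0.85 ± 0.15 (edgeR adjusted p = 0.0286) and PIP2-1 by −1.13 ± 0.21 (edgeR adjusted p = 0.0293). In these 4 genes every wild-type library with ABA stood above every skip-1 library with ABA. The same held of PIP2-6, whose interaction did not pass the test (edgeR adjusted p = 0.742).

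The remaining members did not pass the interaction test. The nearest were NIP1-2 (−0.70 ± 0.15, edgeR adjusted p = 0.0512) and PIP1-5 (0.99 ± 0.24, edgeR adjusted p = 0.0666), the latter the PIP1 gene that fell with ABA. The replicate block took both past the threshold (0.0325 and 0.0378 by edgeR), and PIP1-5 also passed with scaling by library size alone (0.0323) and in DESeq2 (0.00646). NIP1-1, which changed with ABA by −2.19 in wild type and by −2.28 in skip-1, had an interaction of −0.10 ± 0.37 (edgeR adjusted p = 0.918). NIP2-1 had the largest positive value, 2.29 ± 0.97, on few counts (edgeR adjusted p = 0.237).

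Leaving out 1 library reduced the 9 interaction calls to 4 without either wild type mock library, to 2 without wild type ABA replicate 1, to 7 without wild type ABA replicate 2, and to 5 and 6 without skip-1 ABA replicate 1 and 2. PIP1-2 and PIP2-1 each lost the call in 6 of 8 such fits (edgeR adjusted p up to 0.107 and 0.114) and PIP2-5 in 5 (up to 0.083). For PIP1-4 this held of both wild type mock libraries and of wild type ABA replicate 1 (up to 0.0667). TIP1-1 lost it on omission of wild type mock replicate 2, wild type ABA replicate 1 or skip-1 ABA replicate 1 (up to 0.0682). PIP2-2 lost it when the first wild type mock or the first wild type ABA library was omitted (up to 0.0654), and TIP2-2 without wild type ABA replicate 1 (0.0575). Scaling by library size alone ended the calls of PIP1-2 and PIP2-1 (0.0562 and 0.0596). The sign of all 9 was negative under each alternative run. Each fit that left out 1 library also called fewer of all tested features in the interaction.

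The genotype comparison without ABA asked which aquaporins differed between the genotypes in the absence of added hormone. Of the 29 members, 3 were higher and 4 lower in skip-1 and 22 did not pass the test, beside 10.4% of all tested features that were higher and 10% that were lower, so the members were near the background. Their median was 0.03, beside 0.02 over all features. PIP2-7 was at 313 and 315 TMM-scaled FPKM in wild type and at 431 and 437 in skip-1 (0.47 ± 0.09, edgeR adjusted p = 0.0102). PIP2-1 was at 222 and 215 in wild type and at 381 and 276 in skip-1 (0.59 ± 0.15, edgeR adjusted p = 0.024). PIP1-4 was at 131 and 126, and at 202 and 161 in skip-1 (0.50 ± 0.14, edgeR adjusted p = 0.0355). The 3 higher genes were thus all PIP genes.

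Of the 4 lower genes, TIP2-3 was at 8.42 and 5.93 in wild type and at 3.05 and 2.64 in skip-1 (−1.33 ± 0.27, edgeR adjusted p = 0.0119). TIP1-1 was at 371 and 333, and at 273 and 250 in skip-1 (−0.43 ± 0.11, edgeR adjusted p = 0.0237). TIP2-1 was at 560 and 738, and at 375 and 479 in skip-1 (−0.60 ± 0.17, edgeR adjusted p = 0.035). PIP2-2 was at 141 and 149, and at 100.2 and 117 in skip-1 (−0.42 ± 0.11, edgeR adjusted p = 0.03). All 7 had groups that did not overlap, but so did members that did not pass, such as PIP2-8 and SIP2-1 (edgeR adjusted p = 0.224 and 0.247). With 2 libraries a group, such a gap adds no support to a call, and its share over all features was not counted. TIP1-2, at 1394 and 1570 in wild type and 1415 and 1888 in skip-1, did not pass the test.

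None of these 7 calls held when each library was left out in turn. There were 2 calls without wild type mock replicate 1, 1 without wild type mock replicate 2 and 3 without skip-1 mock replicate 1. The highest edgeR adjusted p was 0.162 for PIP1-4, 0.126 for PIP2-1, 0.149 for PIP2-2, 0.0642 for PIP2-7, 0.123 for TIP1-1, 0.209 for TIP2-1 and 0.0674 for TIP2-3. With the replicate block PIP1-2, PIP1-5 and PIP2-5 were called too (edgeR adjusted p = 0.0469, 0.0329 and 0.0306). With library size alone there were 3 higher and 6 lower members, beside 1914 higher and 2358 lower of 21008 features.

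With ABA, the genotypes differed in more members, and mostly in one direction. In skip-1, 14 of 29 members were lower, 2 were higher and 13 did not pass the test, beside 17.4% of all tested features that were lower and 13.6% that were higher. The median of the members was −0.44, beside −0.02 over all features. The lower genes were PIP1-1, PIP1-2, PIP1-3, PIP1-4, PIP2-1, PIP2-2, PIP2-3, PIP2-5, TIP1-1, TIP2-2, TIP2-3, NIP1-2, SIP1-1 and SIP2-1. Scaling by library size alone moved the median of all features to 0.12 and that of the members to −0.30. Then 11 members were lower and 5 higher, while 2493 of 21008 features were lower and 4180 higher. This comparison and that of ABA in wild type share the wild-type libraries with ABA, as the interaction does.

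PIP2-3 was at 308 and 245 TMM-scaled FPKM in wild type with ABA and at 65.0 and 71.1 in skip-1 (−2.02 ± 0.13, edgeR adjusted p = 9.15e-05). PIP2-2 was at 467 and 484, and at 157 and 174 in skip-1 (−1.52 ± 0.11, edgeR adjusted p = 0.000162). TIP1-1, given above, differed by −1.46 ± 0.11 (edgeR adjusted p = 0.000163) and TIP2-2 by −1.59 ± 0.18 (edgeR adjusted p = 0.000883). In each of these 4 the lowest wild-type library stood above the highest skip-1 library, as it also did in PIP2-6, which did not pass (edgeR adjusted p = 0.116). PIP1-1 was at 521 and 571, and at 278 and 302 in skip-1 (−0.91 ± 0.10, edgeR adjusted p = 0.000785). PIP1-4 was at 800.2 and 804, and at 411 and 497 in skip-1 (−0.82 ± 0.14, edgeR adjusted p = 0.00349). PIP2-5 differed by −0.92 ± 0.16, PIP2-1 by −0.54 ± 0.15, PIP1-2 by −0.53 ± 0.11 and PIP1-3 by −0.57 ± 0.13.

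Of the scarcer groups, SIP1-1 was at 99.5 and 102 in wild type with ABA and at 73.8 and 73.3 in skip-1 (−0.45 ± 0.09, edgeR adjusted p = 0.00658). SIP2-1 was at 34.1 and 32.1, and at 24.4 and 24.5 in skip-1 (−0.44 ± 0.09, edgeR adjusted p = 0.0087). NIP1-2 was at 21.8 and 20.7, and at 15.7 and 16.4 in skip-1 (−0.41 ± 0.11, edgeR adjusted p = 0.0228). The 2 higher members were ones that fell with ABA in wild type. NIP5-1 was at 5.69 and 5.67, and at 9.79 and 7.53 in skip-1 (0.61 ± 0.16, edgeR adjusted p = 0.0223). TIP1-2 was at 647 and 643, and at 990 and 1045 in skip-1 (0.66 ± 0.15, edgeR adjusted p = 0.0111).

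Of these 16 calls 8 held when any 1 library was left out: PIP1-1, PIP1-4, PIP2-2, PIP2-3, PIP2-5, TIP1-1, TIP2-2 and SIP1-1. Without either wild type ABA library 10 members were called. NIP1-2 and PIP2-1 lost the call without any 1 of the 4 libraries compared (edgeR adjusted p up to 0.119 and 0.106). NIP5-1, TIP1-2 and TIP2-3 lost it without either wild type ABA library and without 1 skip-1 ABA library, replicate 1 for NIP5-1 and replicate 2 for the others (up to 0.144, 0.0624 and 0.167). PIP1-3 lost it without wild type ABA replicate 2 or skip-1 ABA replicate 2 (up to 0.08), PIP1-2 without the latter (0.055), and SIP2-1 without wild type ABA replicate 1 or skip-1 ABA replicate 1 (up to 0.0537). Scaling by library size alone ended the calls of PIP2-1, TIP2-3 and NIP1-2, and DESeq2 did not call NIP1-2. With the replicate block PIP2-6, PIP2-7 and SIP1-2 were called too (edgeR adjusted p = 0.0273, 0.0332 and 0.0459).

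**Figure D4:**
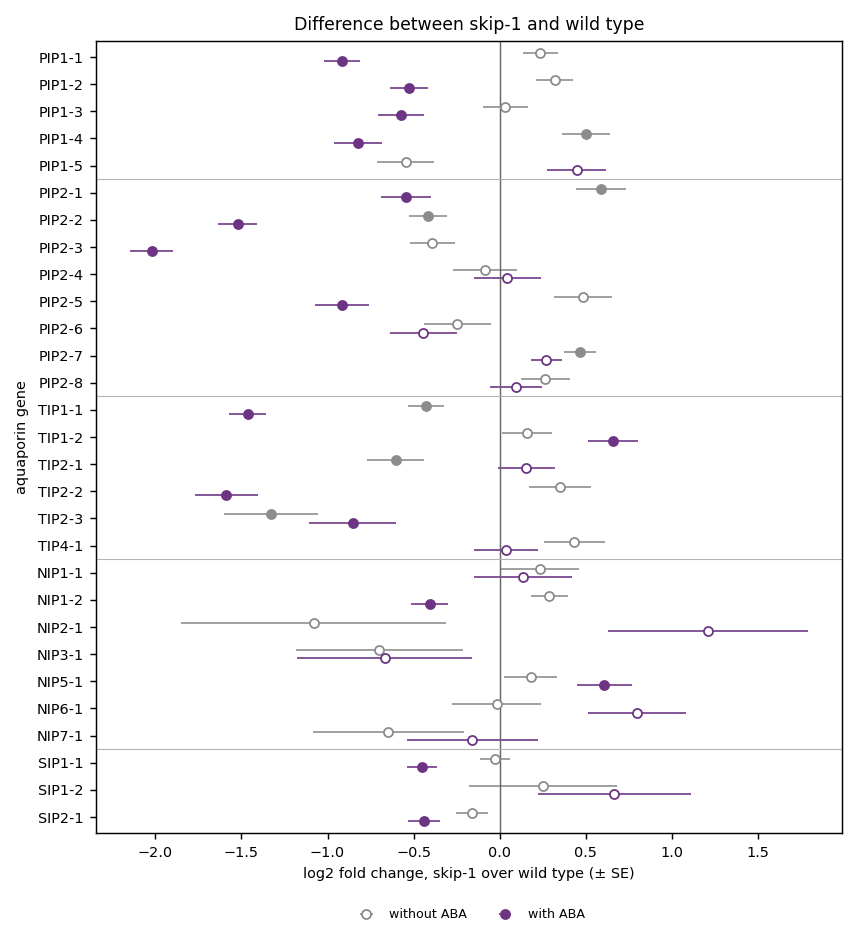
Log2 fold change of skip-1 over wild type (± SE) for the 29 tested aquaporin genes without and with ABA, with filled points past the edgeR adjusted p of 0.05. Without ABA 3 points are filled above 0 and 4 below, and with ABA 2 above and 14 below, PIP2-3 lowest at −2.02.

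Genes that act on aquaporin proteins were measured beside them. Of 15 regulators and partners, 4 rose and 4 fell with ABA in wild type, with a median of 0.17, beside 23.7% of all tested features that rose and 19.5% that fell. UBC32, a ubiquitin-conjugating enzyme that acts on PIP2-1, rose by 2.77 ± 0.11 (edgeR adjusted p = 6.37e-07). OST1, the ABA-activated kinase that phosphorylates PIP2-1, rose by 1.98 ± 0.11 (edgeR adjusted p = 3.84e-06), and TSPO, which binds PIP2-7 and leads it to degradation, by 8.57 ± 0.54 (edgeR adjusted p = 4.99e-05). The counts of TSPO were 16 and 33 without ABA and 6783 and 8236 with it. QSK1 also rose, and RMA2, RMA3, SIRK1 and RBOHD fell. In skip-1, 4 of the 15 rose and 2 fell with ABA, beside 16.3% and 12.1% of all features, with OST1 at 1.63 ± 0.11 (edgeR adjusted p = 2.56e-05), UBC32 at 1.05 ± 0.10 (edgeR adjusted p = 0.000183) and TSPO at 6.50 ± 0.50 (edgeR adjusted p = 0.000273).

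UBC32 was the 1 of these 15 genes with an interaction past the threshold (−1.72 ± 0.15, edgeR adjusted p = 0.00292), in the same direction as the 9 aquaporins and beside 2.27% of all features. Its counts were 863 and 946 in untreated and 4894 and 5071 in treated wild type, and 1077 and 959, then 1876 and 2141 in skip-1. Without ABA 1 of the 15, RBOHD, differed past the threshold between the genotypes (0.70 ± 0.19, edgeR adjusted p = 0.0385). Over all tested features 10.4% were higher and 10% lower. With ABA 2 of the 15 were higher and 4 lower in skip-1, beside 13.6% and 17.4% of all features, with UBC32 at −1.47 ± 0.10 (edgeR adjusted p = 0.000137), the oxidase gene RBOHD at 1.21 ± 0.20 (edgeR adjusted p = 0.00365) and TSPO at −1.52 ± 0.36 (edgeR adjusted p = 0.0232).

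Of 7 boron exporter genes, which work beside the boric acid channels NIP5-1 and NIP6-1, 6 were tested, and BOR6 had no count in any library. In wild type BOR1, the exporter that loads boron into the xylem, fell with ABA by 1.304 ± 0.13 on the log2 scale (edgeR adjusted p = 6.67e-05), as NIP5-1 and NIP6-1 did. BOR2 fell too (−0.82 ± 0.16, edgeR adjusted p = 0.00381), while BOR4, which exports excess boron, rose by 2.48 ± 0.40 (edgeR adjusted p = 0.00128), and BOR5 rose as well. Thus 2 of the 6 rose and 2 fell, beside 23.7% of all tested features that rose and 19.5% that fell. In skip-1, BOR2 (−1.17 ± 0.16, edgeR adjusted p = 0.00102) and BOR1 (−0.57 ± 0.12, edgeR adjusted p = 0.00928) fell and BOR4 rose (2.19 ± 0.35, edgeR adjusted p = 0.00229). That was 1 of 6 higher and 2 lower, beside 16.3% and 12.1% of all features. Without ABA BOR2 was higher in skip-1 (0.98 ± 0.16, edgeR adjusted p = 0.00493). With ABA BOR1 (0.67 ± 0.13, edgeR adjusted p = 0.00537) and BOR2 (0.63 ± 0.16, edgeR adjusted p = 0.0202) were higher. These were 1 of 6 higher without ABA and 2 of 6 with it, beside 10.4% and 13.6% of all features. No boron exporter had an interaction past the edgeR threshold, while 1 of 6 was positive at an unadjusted p under 0.05 and 1 in DESeq2. Over all tested features 0.8% were higher and 2.27% lower in the interaction by edgeR. DESeq2 called 362 of 21008 features higher and 803 lower, and all features were not counted at the unadjusted threshold.

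Promoters were searched for ACGTG, for the longer CACGTG (the G-box, which contains ACGTG) and for CCGAC (the core of the dehydration-responsive element) on both strands, from 250 bases before to 50 after the gene start. ACGTG was found in 6 of the 35 members (17.1%), beside 26.7% of 27443 promoters of the genome. CACGTG was found in 1 member (2.86%, beside 7.68%), the seed gene TIP3-2, and CCGAC in 4 (11.4%, beside 15%). Of the 15 members that rose with ABA in wild type, 3 held ACGTG (TIP1-1, TIP2-3 and SIP1-1), and of the 8 that fell none did. In TIP1-1 it begins 62 bases before the start, as the printed sequence shows. The other holders of ACGTG were TIP3-1, TIP3-2 and TIP5-1, which were too scarce to test. PIP2-3, PIP1-4 and TIP2-2, with the largest rises in wild type, had none of the 3 motifs in this window.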

How the data were processed

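RNA from 8 seedling libraries (4 groups of 2) was sequenced by the authors. The deposited table holds raw read counts per gene, and the authors' FPKM table gives that count over gene length and library total. Per the submitters' processing notes, Bowtie2 2.2.3, TopHat2 2.0.12, HTSeq 0.6.1 and the TAIR10 build were used. Their roles, options, strand setting and treatment of reads shared by several genes were not given in the sources used here.

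All counts went through edgeR 4.0.16 (R 4.3.3): expression filter by group (21008 of 33674 features kept), TMM scaling, a robust quasi-likelihood fit with 1 coefficient per group and 4 residual degrees of freedom, and Benjamini-Hochberg adjustment over all kept features, with a threshold of 0.05. The approximate SE is the size of the log2 change over the root of F. Gene lengths came from both tables. Positions and sequences are from RefSeq TAIR10.1, which held all 35 members. The alternatives were relative log expression scaling, library size alone, no filter, DESeq2 1.42.0, the replicate block and leaving out each library. The members and lists were chosen with earlier results of these data known. In each comparison, the genes given in full were the 2 of each subfamily with the smallest adjusted p past the threshold and the most abundant of each subfamily, and every member past the interaction threshold.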

Additional observations from a re-analysis of the deposited data

Results flagged for a closer look

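For 9 aquaporin genes the effect of ABA differed between skip-1 and wild type by the interaction term of the edgeR fit, and in each the log2 fold change was lower in skip-1. PIP1-2 did not pass the test of its own change there (−0.15, edgeR adjusted p = 0.343). The differences in log2 fold change were −1.15 for PIP1-1, −0.85 for PIP1-2, −1.32 for PIP1-4, −1.13 for PIP2-1, −1.10 for PIP2-2, −1.63 for PIP2-3, −1.40 for PIP2-5, −1.03 for TIP1-1 and −1.93 for TIP2-2. For PIP2-2 and PIP2-3 the counts are uncertain by the reads that the neighbours share. Summed photosynthetic shoot markers and summed root markers were both higher in skip-1 than in wild type without and with ABA. Most single root markers did not pass, while 6 of 10 shoot markers were higher and 0 lower in each condition. Over all tested features 10.4% were higher without ABA and 13.6% with it. In the interaction 0 of 16 root and 0 of 10 shoot markers passed, with medians of 0.215 and 0.083. Of all tested features just 0.8% were higher and 2.27% lower there. The part of these markers in the 9 differences was not tested.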

How the results depend on the processing

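Scaling by library size alone changed which genes were called for skip-1 against wild type with ABA. PIP2-1, TIP2-3 and NIP1-2, lower in skip-1, were lost, and PIP1-5, PIP2-7 and NIP6-1, higher in skip-1, were gained. The number of aquaporin genes called moved little with the scaling, the filter or the tool, and more when a library was left out. Over the 8 leave-one-out fits it ran from 19 to 23 for ABA in wild type (23 with all libraries), from 12 to 17 for ABA in skip-1 (19), from 1 to 7 for skip-1 against wild type without ABA (7), from 10 to 19 for the same with ABA (16) and from 2 to 10 for the interaction (9). In such a fit the lone library of a group is assumed to vary like the others. Fewer of all tested features were called, too, whenever a library of a compared group was left out. With the replicate block the numbers were 23, 20, 10, 19 and 11, and no call was lost. Whether equal replicate numbers mark a shared batch is not stated. Deviations from the group mean in first replicates had correlations of 0.111 to 0.258 over the 6 pairs of groups, which with 2 libraries a group cannot show pairing. No called member changed sign under any alternative run. Members that were not called changed the sign of a fitted value in 37 cases, none of them past the threshold, and gained a call in 37. Using counts without length moved the subfamily shares by more than their SD in 12 of 20 cases. Depth limits the 6 untested members and NIP2-1, NIP3-1 and NIP7-1.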
